A study of Mus musculus with 9 samples.

Results

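The genes described are 44 genes of DNA damage signalling and repair, chosen by name from the 39017 gene rows of one RNA-seq count table. Each was found by matching its symbol to an Ensembl gene ID. All 44 had enough reads to be tested, with 80 to 13042 counts per sample and gene. They comprise 8 damage kinases and checkpoint genes, 8 genes of break sensing and chromatin marking, 12 of homologous recombination, 7 of end joining, 4 of single-strand break repair, 2 of mismatch repair and 3 of the Fanconi anaemia pathway.

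The cells were helper T lymphocytes, which carry CD4, isolated from lymph node of male C57BL/6 mice. Every sample, controls included, came from a male with a floxed Kdm6a allele on its single X chromosome. In the WT group (5 samples, numbered 1, 3, 4, 5 and 9) CD4-Cre was absent. In the cKO group (4 samples, numbered 2, 6, 7 and 8) it was present in 1 copy, CD4-Cre (+/-). Kdm6a encodes a demethylase that removes methyl groups from lysine 27 of histone H3, and the comparison asks which transcripts differ when it is deleted. CD4-Cre follows the Cd4 promoter, which is active in immature thymocytes before the CD4 and CD8 lineages part, so deletion precedes the mature cells that were sampled. Because the WT mice lack Cre altogether, presence of the Cre transgene and loss of Kdm6a cannot be told apart. The age of the mice is not given in the sources used here, and the labels do not say whether each sample came from a separate mouse, so p-values measure the spread between these samples. No label mentions stimulation, although "stim" is part of the title given to the count table.

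Cells answer DNA damage in layers. Sensor complexes bind a broken or stalled DNA end, kinases of the ATM and ATR pathways phosphorylate many proteins and hold the cell cycle, and a histone mark spreads around the break. Repair then runs through homologous recombination, which copies the sister chromatid and works in S and G2 phase, or through end joining, which works throughout the cycle. In developing lymphocytes the end-joining proteins also close the breaks made when antigen receptor genes are assembled. Many genes of recombination, mismatch repair and the checkpoint are transcribed more strongly in cells that replicate DNA, in part through E2F transcription factors.

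Library totals ran from 20587500 to 26387500 counts, and did not separate the groups (exact permutation test, two-sided, p = 0.317). Kdm6a itself was at 62.7 ± 1.59 CPM (counts scaled to a common library total; SD, n = 5) in WT and 42.7 ± 1.48 (n = 4) in the cKO samples, a fall of 31.9% (edgeR quasi-likelihood test, adjusted p = 2.89e-05). All 4 cKO samples lay below all 5 WT samples. Its count covers the whole gene, including exons that Cre leaves in place. The size of the fall therefore does not show how complete the deletion was, and this was not tested. The defining markers of CD4+ T cells were present in every sample: the summed level of the 7 markers was 2822 to 3017 CPM in WT and 2855 to 3040 CPM in cKO. Single markers differed within that sum: Cd4 and Cd5 rose, Lck, Cd3g and Cd3d fell, and Cd28 and Cd3e did not pass the test (Lck from 610.2 to 532 CPM, edgeR adjusted p = 0.00547; Cd5 from 274 to 321 CPM, adjusted p = 0.00130). Markers of B cells, dendritic cells and erythroid cells summed to at most 5.12 CPM in any sample, those of macrophages to at most 21.3 CPM, and the 4 neutrophil markers were at 0 in all. The natural killer list spanned 6.53 to 18.3 CPM in WT against 10.4 to 39.8 CPM in cKO, and most of it was Eomes. The stroma and vessel list, nearly all Pecam1, spanned 96.9 to 119 CPM in WT against 84.4 to 106 CPM in cKO. The 2 CD8 T cell markers moved with genotype, between 11.9 and 15.1 CPM in WT and between 15.1 and 19.1 CPM in cKO, with no overlap (exact permutation p = 0.0159, the smallest that 5 against 4 samples allow; adjusted over 13 summed levels, 0.0688). The mitochondrial share of counts was 2.38% ± 0.0572 in WT and 2.59% ± 0.138 in cKO (exact permutation p = 0.0317, adjusted 0.103). The part of either in the results was not tested. In bulk RNA, fewer cells of a kind and less RNA per cell cannot be told apart.

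Most DNA damage response transcripts were at similar levels in the 2 genotypes. Of the 44 genes, 4 fell in cKO, 0 rose and 40 did not pass the test (edgeR quasi-likelihood test, Benjamini-Hochberg adjusted p below 0.05 over 14693 genes). The 4 were Fanci, Fanca, Msh6 and Rad54l, with falls of 8.58% to 12.4%. The called share of 9.09% compares with 15.8% of all genes tested, of which 8.82% were lower and 7.0% higher. At an unadjusted p below 0.05, 10 of the 44 were lower and 4 higher. Of all 14693 genes tested, 2390 were lower and 2182 higher at that threshold. DESeq2 called 5 lower and 1 higher, and limma-voom called 4 lower and 0 higher.

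The intervals were computed for each gene separately, so they do not bound all 44 differences jointly. For all 44 genes the 95% interval of the fold change lay within 1.5-fold either way, and for 42 within 1.3-fold; the exceptions were Atr and the sparsely read Nhej1. The outermost bounds were -22.7% and 34.3%. A difference of under 10% was estimated for 35 of the 44 genes, or 79.5%, against 59.1% of all genes tested. Differences of over 20% were estimated for 0. These genes had more reads than most: their median WT level was 84.2 CPM, against 23.4 CPM for all genes tested.

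The signs were unequal, with 32 genes below 0 and 12 above. The median log2 fold change was -0.06, against 0.0012 for all genes tested, with an interquartile range of -0.11 to 0.02 against -0.11 to 0.11. Single genes ran from -0.21 for Bard1 to 0.24 for Atr. WT and cKO samples did not overlap for 5 of the 44 genes, or 11.4%, against 15.9% of all genes tested. These were the 4 called genes and Rnf8. The number of calls changed with the samples. Without WT 1 there were 9 lower calls, and without any one of WT 3, WT 4, WT 9, cKO 6 or cKO 8 there was 1. Without cKO 2 there were 2, and upper-quartile scaling gave 2. Calls over all genes shifted too, from 15.8% in the main fit to 20.1% without WT 1. They were 8.54% to 11.4% without WT 3, WT 4, WT 9, cKO 6 or cKO 8, 14.7% without cKO 2 and 15.9% with upper-quartile scaling.

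**Figure D1:**
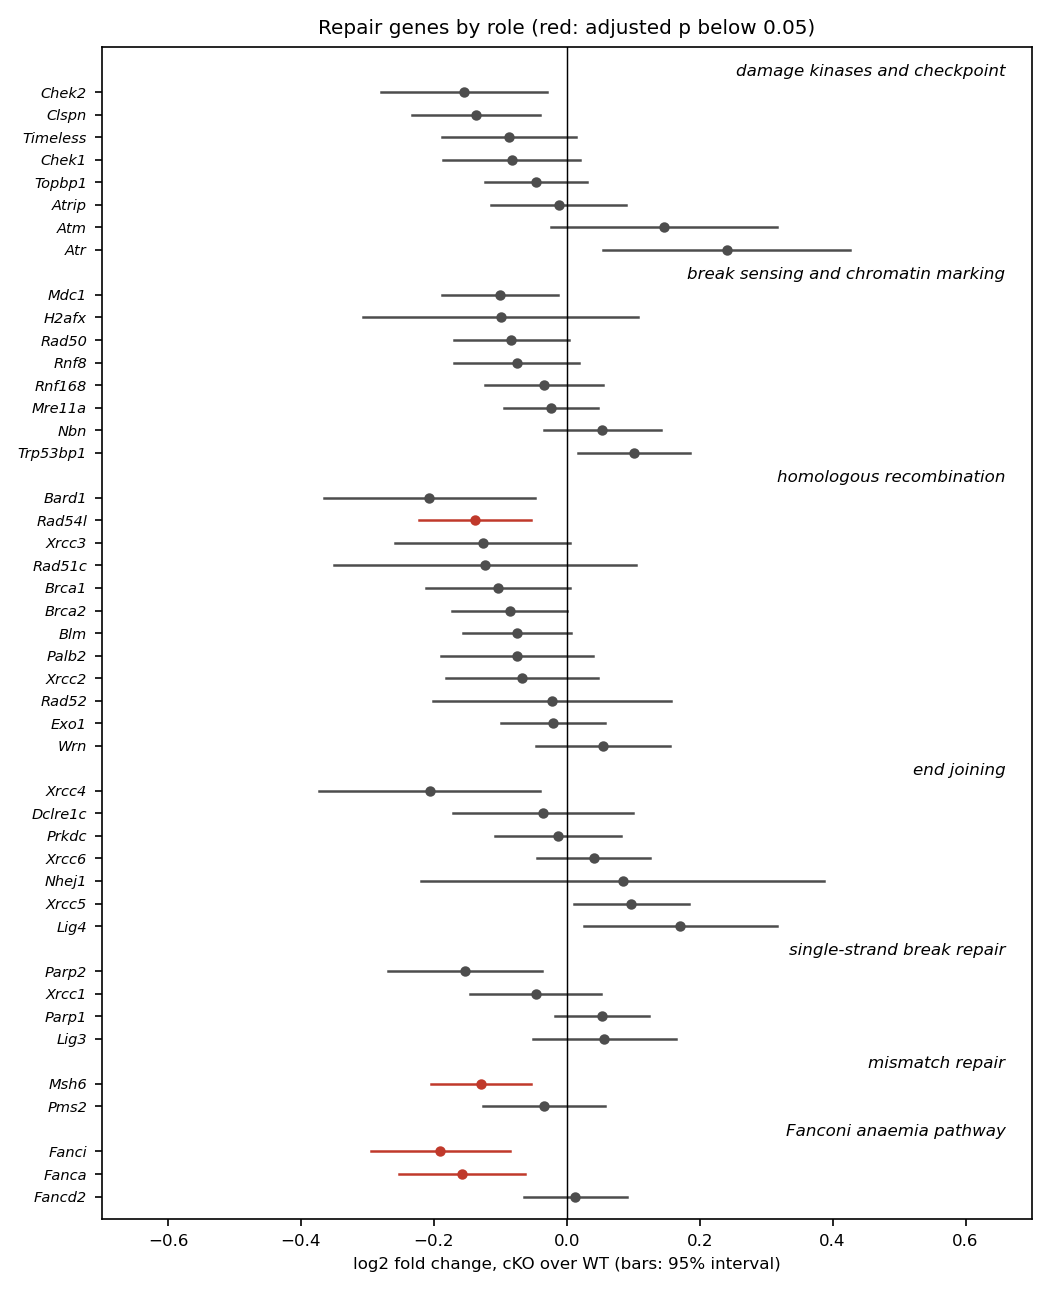
Log2 fold change, cKO over WT, of the 44 genes by role, with 95% intervals from edgeR; red points passed the adjusted threshold of 0.05. The 4 called genes lie between -0.19 and -0.13, and every interval lies within 1.5-fold either way.

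The Fanconi anaemia pathway removes crosslinks that join the DNA strands, and 2 of its 3 genes among the 44, Fanci and Fanca, fell (8.82% of all genes tested were lower). Of 10 other Fanconi anaemia genes, 0 rose, 0 fell, 6 estimates were above 0 and the median was 0.012. Fanci encodes one subunit of the pair that is clamped onto DNA at a crosslink (chromosome 7, 79391929 to 79450264, mm10). Its level in the 5 WT samples was 82.4, 86.4, 89.8, 89.4 and 96.2 CPM, and in the 4 cKO samples 78.4, 74.3, 81.7 and 77.1 CPM. The groups did not overlap, with WT 1 and cKO 7 less than 1 CPM apart. Fanci fell by 12.4% (95% interval -18.5% to -5.75%; log2 fold change -0.19, SE 0.05, edgeR adjusted p = 0.0217). Omitting either cKO 6 or cKO 8 ended the call (edgeR adjusted p of 0.0598 to 0.0725).

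Fanca encodes a subunit of the core ubiquitin ligase complex that acts on that pair (chromosome 8, 123268300 to 123318576). Its WT levels were 60.2, 63.1, 62.4, 61.5 and 63.3 CPM and its cKO levels 52.4, 53.5, 58.5 and 58.4 CPM. The WT samples were tightly grouped (SD 1.27), and all 4 cKO samples lay below them. Fanca fell by 10.4% (95% interval -16.03% to -4.29%; log2 fold change -0.16, SE 0.04, edgeR adjusted p = 0.0302). Leaving out any one of WT 3, WT 4, WT 9, cKO 2 or cKO 6 raised the adjusted p to 0.0615 to 0.0949. Fancd2, the partner of Fanci in the clamp, stood at 72.8, 69.0, 74.3, 73.4 and 74.1 CPM in the WT and 74.2, 71.9, 75.1 and 72.2 CPM in the cKO samples. Its groups overlapped throughout (log2 fold change 0.01, 95% interval -0.06 to 0.09, edgeR adjusted p = 0.844).

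Msh6 encodes the subunit that, paired with its partner, recognises mispaired bases after replication (chromosome 17, 87975062 to 87990892). WT samples were at 252, 263, 268, 276 and 271 CPM and cKO samples at 244, 238, 244 and 247 CPM. The highest cKO sample lay just under the lowest WT sample, and the 4 cKO samples had an SD of 3.77. Msh6 fell by 8.58% (95% interval -13.2% to -3.69%; log2 fold change -0.13, SE 0.03, edgeR adjusted p = 0.0270). The call was lost without any one of 7 samples, which were WT 3, 4, 5 and 9 and cKO 6, 7 and 8 (adjusted p = 0.0508 to 0.0830), and with upper-quartile scaling (0.0522). Pms2, which nicks the new strand in the same pathway, averaged 65.5 ± 2.95 CPM in the WT and 63.9 ± 1.94 CPM in the cKO samples (log2 fold change -0.03, edgeR adjusted p = 0.612).

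Rad54l encodes a motor protein that helps the recombinase filament invade the intact copy (chromosome 4, 116094264 to 116123690). Its WT levels were 119.9, 125, 127, 119.6 and 129 CPM and its cKO levels 108, 113, 116 and 115 CPM. Every cKO sample was lower than every WT sample, by at least 3 CPM. Rad54l fell by 9.12% (95% interval -14.3% to -3.65%; log2 fold change -0.14, SE 0.04, edgeR adjusted p = 0.0324). Leaving out WT 3, WT 4, WT 9, cKO 2, cKO 6 or cKO 8 raised the adjusted p to 0.0606 to 0.0830, and upper-quartile scaling or no count filter to 0.0540 to 0.0592.

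All 4 called genes overlap an exon of a gene on the opposite strand in the GENCODE M21 annotation. The library kit keeps the strand, but whether the counting used it is not given in the sources used here, so shared reads could not be assigned. Fanci shares 921 exonic bases, 15.95% of its length, with Polg, the mitochondrial DNA polymerase, which also fell (153 to 139 CPM, log2 fold change -0.14, edgeR adjusted p = 0.0392). Rad54l shares 15.4% with Lrrc41 (0.0047, adjusted p = 0.954) and Fanca 10.5% with Zfp276 (-0.08, adjusted p = 0.374). Msh6 shares 0.782% with Fbxo11 (0.17, adjusted p = 0.0921). In all, 19 of the 44 genes share exonic bases with another gene, 15 of them on the opposite strand.

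Promoter sequence from RefSeq (build GRCm38.p6, from 250 bases before to 50 after the transcription start) was at hand for 36 of the 44 genes, and 3 kinds of short word were searched on both strands. The first kind was the E2F-type words TTTCCCGC, TTTGGCGC and TTTCGCGC. At least 1 of these stood in 9 of 36 promoters, or 25%, against 2.12% of the 27025 genes in the table and 4.14% of the 9931 of them tested here. The 9 were Topbp1, Clspn, Chek2, Mdc1, Brca2, Bard1, Rad51c, Xrcc6 and Msh6, so 1 of the 4 called genes held such a word. Of the members on the list of genes linked to S phase, described further on, 5 of 12 held one, and of the others 4 of 24. The stretches around the word in 5 of these promoters are shown as examples of the word before the start, where no annotated UTR covers it; capitals mark the word or its reverse complement.
Topbp1 (chr9:103305178-103305214, plus strand): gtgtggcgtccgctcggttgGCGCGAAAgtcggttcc
Chek2 (chr5:110839811-110839858, plus strand): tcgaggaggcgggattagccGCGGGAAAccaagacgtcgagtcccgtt
Mdc1 (chr17:35841462-35841497, plus strand): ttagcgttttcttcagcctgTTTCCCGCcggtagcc
Brca2 (chr5:150522433-150522480, plus strand): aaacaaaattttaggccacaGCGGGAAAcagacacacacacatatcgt
Bard1 (chr1:71103154-71103201, minus strand): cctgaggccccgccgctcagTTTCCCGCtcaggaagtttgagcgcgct

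The second word was CCAAT, the core of the site bound by the factor NF-Y, found in many promoters of cell cycle genes and in many others. It stood in 19 of 36 promoters, or 52.8%, against 41.1% of all genes in the table and 42.8% of those tested. Among the called genes it was in the promoters of Rad54l, Msh6 and Fanca. The 120 bases before their starts are shown, with CCAAT or its reverse complement ATTGG in capitals.
Rad54l (chr4:116123691-116123810, minus strand): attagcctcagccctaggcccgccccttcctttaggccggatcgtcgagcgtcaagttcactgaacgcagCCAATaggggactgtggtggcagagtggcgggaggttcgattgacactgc
Msh6 (chr17:87974930-87975049, plus strand): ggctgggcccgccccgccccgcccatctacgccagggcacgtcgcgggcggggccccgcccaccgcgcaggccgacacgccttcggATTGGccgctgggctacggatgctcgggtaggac
Fanca (chr8:123318577-123318696, minus strand): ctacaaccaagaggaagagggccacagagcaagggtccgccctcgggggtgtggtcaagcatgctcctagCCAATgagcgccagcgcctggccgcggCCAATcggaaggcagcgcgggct

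The third word, TTTGAA, the core of the element bound by repressive cell cycle complexes, stood in 2 of 36 promoters, or 5.56%, against 20.2% of all genes in the table and 14.1% of those tested. The 2 were Rnf8 and Bard1. The CCAAT and TTTGAA of the Rnf8 promoter share a base, the only such pair (1) in these promoters. A match describes the letters in the window and does not show that a factor binds there.

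Among the 8 damage kinases and checkpoint genes, 0 rose and 0 fell (7.0% and 8.82% of all genes tested). With so few genes, 0 calls do not set the group apart. Atm and Atr encode the kinases that start the response to breaks and to stalled forks, and both had higher mean levels in cKO. Atr had the largest estimated difference of the 44 genes, with 106, 99.5, 90.1, 115 and 83.9 CPM in WT and 126.4, 121, 107 and 112 CPM in cKO. The ranges met, since WT 5 lay above cKO 7 and cKO 8, and the WT samples were widely spread (SD 12.3). The log2 fold change was 0.24 (SE 0.08, 95% interval 0.05 to 0.43, edgeR adjusted p = 0.0776). DESeq2 gave an adjusted p of 0.0497, and edgeR without WT 5 gave 0.0290. Atm averaged 169 ± 14.8 CPM in the WT and 187 ± 20.8 CPM in the cKO samples, where cKO 2 stood highest at 218 CPM (0.15, SE 0.08, edgeR adjusted p = 0.223).

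Clspn encodes claspin, the adaptor through which ATR reaches the checkpoint kinase Chek1. Its WT samples were at 201, 207, 223, 221 and 226 CPM and its cKO samples at 192, 187, 201 and 203 CPM. The groups overlapped through WT 1, which lay just below cKO 7 and cKO 8. The log2 fold change of -0.14 (SE 0.04) missed the threshold with edgeR (adjusted p = 0.0583) and met it with DESeq2 (0.0453) and without WT 1 (0.0215). Chek2, the kinase downstream of Atm, averaged 23.7 ± 1.36 CPM in the WT and 21.2 ± 0.982 CPM in the cKO samples (-0.15, SE 0.06, edgeR adjusted p = 0.0893; 0.0323 without WT 1). Chek1 was at 87.2 ± 3.88 and 82.3 ± 4.64 CPM (adjusted p = 0.257). Timeless, a fork protection factor, had a log2 fold change of -0.09 (edgeR adjusted p = 0.222; 0.0308 without WT 1). Topbp1, which activates ATR, had -0.05 (95% interval -0.12 to 0.03), and Atrip, the partner of ATR, had -0.01 (-0.11 to 0.09).

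**Figure D2:**
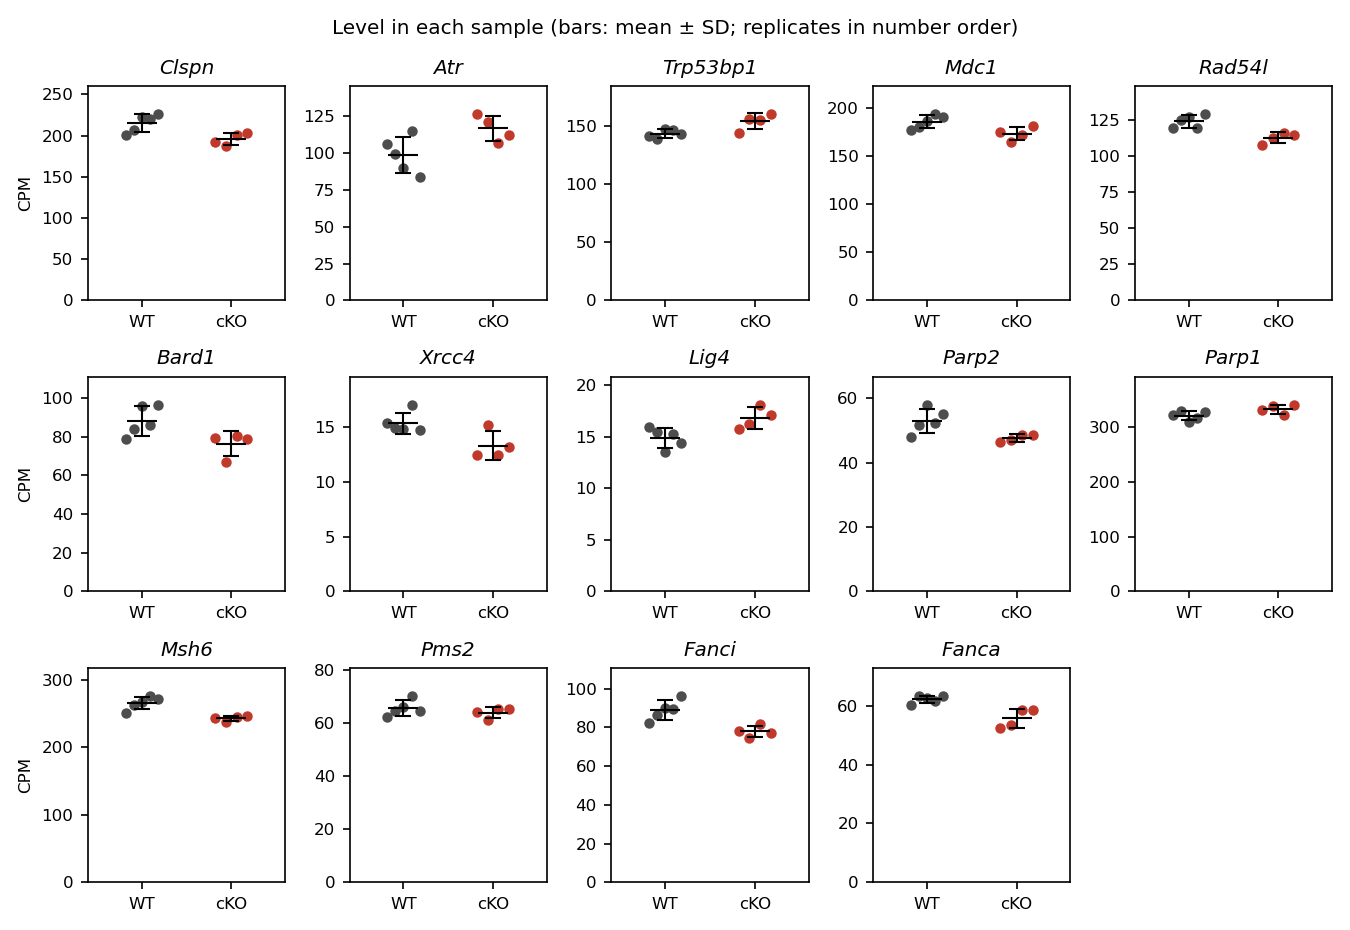
CPM of 14 of the genes in each WT (grey) and cKO (red) sample, with the mean and SD and points in the order of sample number; each axis starts at 0. For Fanci, Fanca, Msh6 and Rad54l all 4 red points lie below all grey points, and for Bard1, Clspn and Parp2 the first grey point, WT 1, lies at the level of the red ones.

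The 8 genes of break sensing and chromatin marking held 0 rises and 0 falls (7.0% and 8.82% of all genes tested). Their median was -0.05. The complex of Mre11a, Rad50 and Nbn holds and trims broken ends. Mre11a was the steadiest transcript in WT, at 117, 117, 118, 119 and 116 CPM, and cKO samples ran from 112 to 120.1 CPM. Its log2 fold change was -0.02 (95% interval -0.09 to 0.05). Rad50 had -0.08 (edgeR adjusted p = 0.176) and Nbn 0.05 (0.401). H2afx, the histone variant phosphorylated around breaks, stood at 182, 196, 221, 187 and 260.3 CPM in the WT and 184, 189, 208 and 202 CPM in the cKO samples. WT 9 stood above all others, and the interval ran from -0.31 to 0.11.

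Mdc1 encodes the scaffold that reads the phosphorylated histone, and Trp53bp1 the factor that shields ends from resection and steers them to end joining. Mdc1 stood at 177, 180.4, 186, 194 and 191 CPM in the WT and 175, 164, 172 and 181 CPM in the cKO samples (log2 fold change -0.10, SE 0.04, edgeR adjusted p = 0.110). Trp53bp1 stood at 141, 138, 147, 146 and 143 CPM in the WT and 144, 156, 155 and 160.0 CPM in the cKO samples (0.10, SE 0.04, adjusted p = 0.0994). Above all WT samples lay cKO 6, 7 and 8 for Trp53bp1, and without cKO 2 the adjusted p was 0.0357. Rnf8 and Rnf168 encode the ubiquitin ligases that act between Mdc1 and Trp53bp1. Rnf8 spanned 29.5 to 32.2 CPM in WT against 28.7 to 29.4 CPM in cKO. The groups did not overlap, but the difference was small (-0.08, edgeR adjusted p = 0.257). Rnf168 had -0.03 (adjusted p = 0.603).

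Of the 12 genes of homologous recombination, Rad54l fell and 11 did not pass the test (8.82% of all genes tested fell). Of the 12 estimates, 11 were below 0, and the median was -0.08. Bard1, the partner of Brca1 in a ubiquitin ligase, had the lowest estimate of all 44 genes. It stood at 78.6, 84.0, 96.0, 85.9 and 96.4 CPM in the WT and 79.5, 66.9, 80.4 and 78.8 CPM in the cKO samples. The groups overlapped through WT 1, and cKO 6 stood apart from the other cKO samples. The log2 fold change was -0.21 (SE 0.07, edgeR adjusted p = 0.0765), with an adjusted p of 0.0274 without WT 1 and 0.0488 with offsets for GC content and length.

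Brca1 averaged 137 ± 7.94 CPM in the WT and 128 ± 5.87 CPM in the cKO samples (-0.10, SE 0.05, edgeR adjusted p = 0.177). Brca2, which loads the recombinase onto resected DNA, was at 134 ± 6.04 and 127 ± 2.65 CPM (-0.09, adjusted p = 0.162; 0.0435 with GC and length offsets). Palb2, which bridges the pair, had -0.08 (adjusted p = 0.356). The recombinase paralogs Rad51c, Xrcc2 and Xrcc3 had -0.12, -0.07 and -0.13, with adjusted p of 0.455, 0.416 and 0.177. The end-resecting nuclease Exo1 had -0.02 (95% interval -0.10 to 0.06) and the annealing protein Rad52 -0.02 (-0.20 to 0.16). The helicase Blm had -0.08 (adjusted p = 0.192), and its relative Wrn, the one gene of the group above 0, had 0.05 (0.454).

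The 7 genes of end joining had a median of 0.04. Of them, 0 rose and 0 fell (7.0% and 8.82% of all genes tested). Xrcc5 and Xrcc6 encode the Ku heterodimer that rings a broken end. Xrcc5 averaged 70.2 ± 1.97 CPM in the WT and 75.1 ± 3.26 CPM in the cKO samples (0.10, SE 0.04, edgeR adjusted p = 0.118), and Xrcc6 at 104 ± 4.51 and 107 ± 2.36 CPM (0.04, adjusted p = 0.518). Prkdc, the kinase that Ku recruits, differed by -0.01 (95% interval -0.11 to 0.08). Dclre1c, the nuclease Artemis that opens hairpin ends, differed by -0.04 (-0.17 to 0.10), and Nhej1, a bridging factor read at about 4 CPM, by 0.08 (-0.22 to 0.39).

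Lig4 and Xrcc4 encode the ligase and its stabilising partner, and their estimates had opposite signs. Lig4 stood at 16.01, 15.5, 13.5, 15.3 and 14.4 CPM in the WT and 15.8, 16.3, 18.1 and 17.2 CPM in the cKO samples (0.17, SE 0.07, edgeR adjusted p = 0.105). Xrcc4 stood at 15.4, 14.9, 14.8, 17.0 and 14.7 CPM in the WT and 12.4, 15.2, 12.4 and 13.1 CPM in the cKO samples (-0.21, SE 0.08, adjusted p = 0.0890). Lig4 overlapped between groups through WT 1 and cKO 2, and Xrcc4 through cKO 6, which lay among the WT samples. Without cKO 6 the adjusted p of Xrcc4 was 0.0385, and it was then the only one of the 44 genes called lower.

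Among the 4 genes of single-strand break repair, 0 rose and 0 fell (7.0% and 8.82% of all genes tested). Parp1 encodes the main sensor of nicked DNA and Parp2 a related enzyme. Parp1 averaged 321 ± 8.01 CPM in the WT and 333 ± 8.39 CPM in the cKO samples (0.05, SE 0.03, edgeR adjusted p = 0.295). Parp2 stood at 48.0, 51.6, 57.9, 52.5 and 55.0 CPM in the WT and 46.3, 47.1, 48.6 and 48.7 CPM in the cKO samples (-0.15, SE 0.05, adjusted p = 0.0718). Only WT 1 of the WT samples lay within the cKO range for Parp2. The scaffold Xrcc1 differed by -0.05 (95% interval -0.15 to 0.05) and its ligase Lig3 by 0.06 (-0.05 to 0.16).

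Products of several of these genes work as fixed pairs, so the log2 ratio of CPM was compared within 8 such pairs, chosen after the values of single genes had been seen. The ratio of Fanci to Fancd2 was 0.18, 0.32, 0.27, 0.28 and 0.38 in WT and 0.08, 0.05, 0.12 and 0.10 in cKO. The groups did not overlap, and the means differed by -0.20 (exact permutation p = 0.0159, adjusted over 8 pairs 0.0635). The ratio of Xrcc4 to Lig4 was -0.06, -0.06, 0.13, 0.15 and 0.03 in WT and -0.35, -0.10, -0.54 and -0.39 in cKO, a difference of -0.38 (exact permutation p = 0.0159, adjusted 0.0635). Neither met the adjusted threshold, but 0.0159 is the smallest p these sample numbers give. Full separation of a single pair could not have met the threshold over 8 pairs, so the miss decides nothing. The adjustment also does not allow for the choice of pairs after the values were seen, so these p-values are descriptive.

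The other 6 ratios overlapped between the groups. Atr to Atrip differed by 0.26 (exact permutation p = 0.0476, adjusted 0.127) and Brca1 to Bard1 by 0.10 (exact p = 0.0794, adjusted 0.159). Xrcc5 to Xrcc6 differed by 0.06, Nbn to Mre11a by 0.08, Rad50 to Mre11a by -0.06 and Xrcc1 to Lig3 by -0.10, with adjusted p from 0.212 to 0.270 (exact permutation tests, two-sided). The pairs share reads of no gene except Mre11a, which stands in 2 of them.

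**Figure D3:**
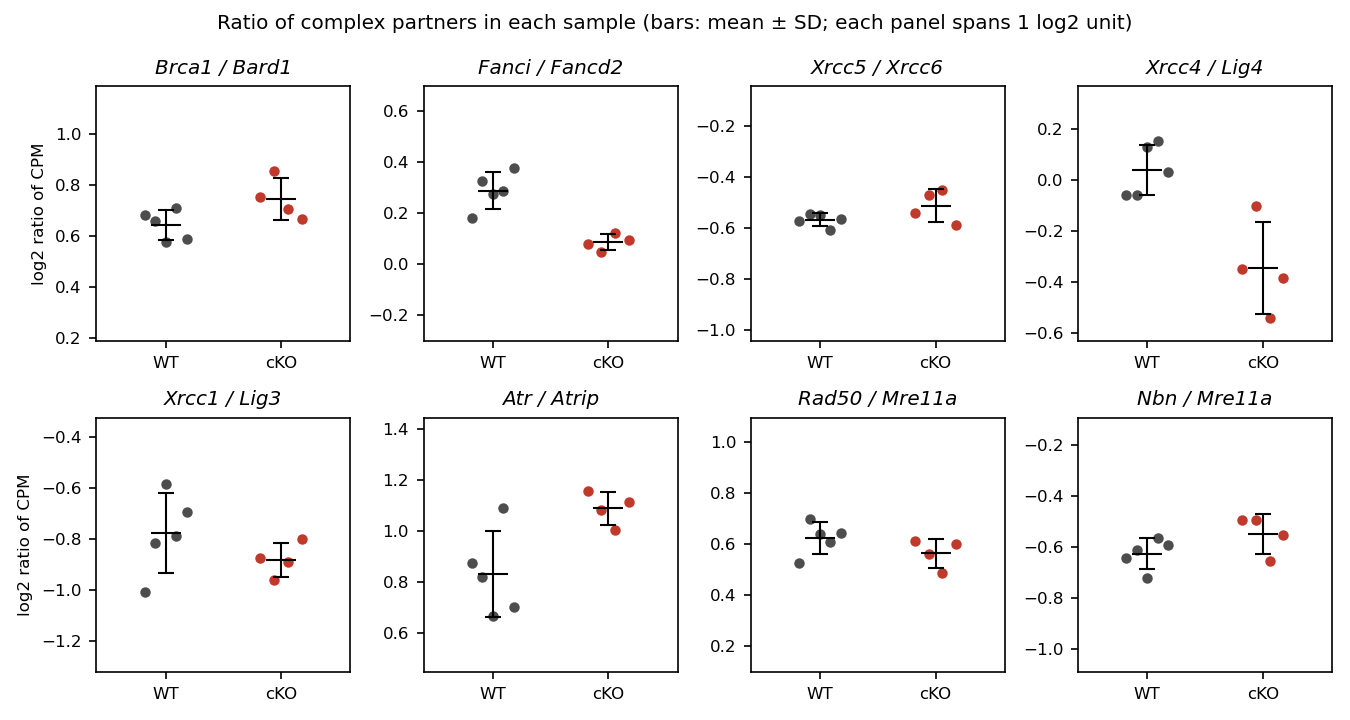
Log2 ratio of CPM of 8 pairs of partner genes in each sample, WT (grey) against cKO (red), with the mean and SD; every panel spans 1 log2 unit. The groups do not overlap for Fanci to Fancd2 and for Xrcc4 to Lig4.

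Levels between genes were compared per kilobase of exon (CPM per kb; union of all annotated exons, which understates genes with long rare exons). In WT the order began with H2afx at 151 ± 23.3, Msh6 at 61.2 ± 2.15, Parp1 at 60.6 ± 1.51 and Topbp1 at 43.0 ± 1.68 CPM per kb. Msh6 and Parp1 differed by less than their spread in WT. In cKO Parp1 stood at 62.8 ± 1.58 and Msh6 at 56.0 ± 0.867 CPM per kb. Nbn, Timeless and Clspn stood at 30.0 CPM per kb each in WT. The lowest were Lig4 at 2.87, Dclre1c at 2.69, Rnf8 at 2.62 and Rad51c at 1.95 ± 0.208 CPM per kb. The kinase gene Atm stood at 16.4 and Atr at 4.18 CPM per kb, over exon unions of 10338 and 23629 bases. Before division by length they were at 169 and 98.8 CPM in WT, so the size of this gap depends on the length used. The union of Rnf8 is also long, at 11703 bases.

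**Figure D4:**
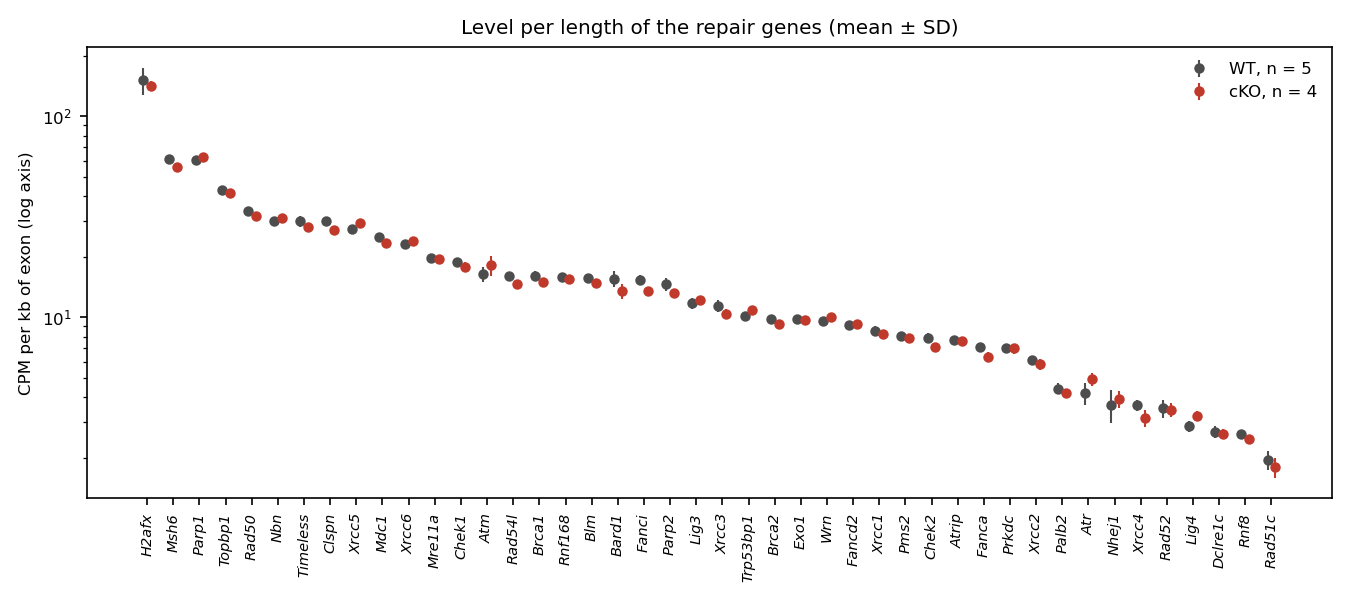
Level of the 44 genes per kilobase of exon (CPM per kb, log axis) in WT and cKO, with the SD over samples, in the order of the WT means. H2afx leads at 151 CPM per kb in WT and Rad51c is last at 1.95.

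The 14 genes linked to S phase in general knowledge (Brca1, Brca2, Bard1, Rad54l, Exo1, Blm, Chek1, Clspn, Timeless, Topbp1, Fanca, Fancd2, Fanci and Msh6) held all 4 called genes, against 8.82% of all genes tested that were lower; the list was drawn up with earlier results known. Of the 14, 13 estimates were below 0 and the median was -0.10. The other 30 genes held 0 calls, 11 estimates above 0 and a median of -0.03. The summed level of the 14 was 2040 to 2242 CPM in WT and 1964 to 2071 CPM in cKO, and that of the other 30 was 2399 to 2505 and 2437 to 2504 CPM. In the first sum WT 1, at 2040 CPM, lay among the cKO samples, and in the second the groups overlapped fully. The split of the calls changed with the samples. Without cKO 6 the only call was Xrcc4, outside the 14, and without WT 1 the calls included Chek2 and Parp2, also outside them. Whether the lists differ in their response was not tested.

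Cell cycle genes were measured beside them. Of 17 S phase genes, 11 fell and 0 rose, with a median of -0.15 (8.82% of all genes tested were lower). Ccne1, a cyclin that opens S phase, had the smallest adjusted p (log2 fold change -0.24, SE 0.04, edgeR adjusted p = 0.00210). Its relative Ccne2, the only gene of the list above 0, had 0.00086 (edgeR adjusted p = 0.993). The summed level of the 17 S phase genes was 5552 to 5928 CPM in WT and 5045 to 5309 CPM in cKO, without overlap (exact permutation p = 0.0159, adjusted 0.0688). Of 15 genes of G2 and mitosis, Birc5, Bub1 and Plk1 fell and 0 rose, with a median of -0.13. Without cKO 6 the counts were 6 S phase genes and 0 genes of G2 and mitosis. Calls in either direction over all genes tested then dropped from 15.8% to 8.54%. The part of the cell cycle composition in the falls of Fanci, Fanca, Msh6 and Rad54l was not tested.

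Of 15 target genes of p53, 9 rose, 0 fell and 6 did not pass the test, with a median of 0.54 (7.0% of all genes tested were higher). Their summed level did not overlap between groups (exact permutation p = 0.0159, adjusted over 13 summed levels 0.0688). That misses the threshold, but 0.0159 is the smallest p these sample numbers give. Full separation of a single list could not have met the threshold, so the miss does not show that the groups are alike. The smallest adjusted p belonged to Pmaip1 (0.91) and Bbc3 (0.72), which promote cell death, and Phlda3 (0.73). The 6 that did not pass were Cdkn1a (0.57), Eda2r (0.61), Bax (0.20), Aen (0.14), Trp53inp1 (0.06) and Gadd45a (-0.06). Their edgeR adjusted p ran from 0.0637 to 0.827. Leaving out single samples gave 7 to 11 rises and 0 falls. The level of Trp53 itself was 215 CPM (WT) and 220 CPM (cKO) (edgeR adjusted p = 0.536). DNA damage was not measured, and the part of p53 or of damage in these rises was not tested.

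**Figure D5:**
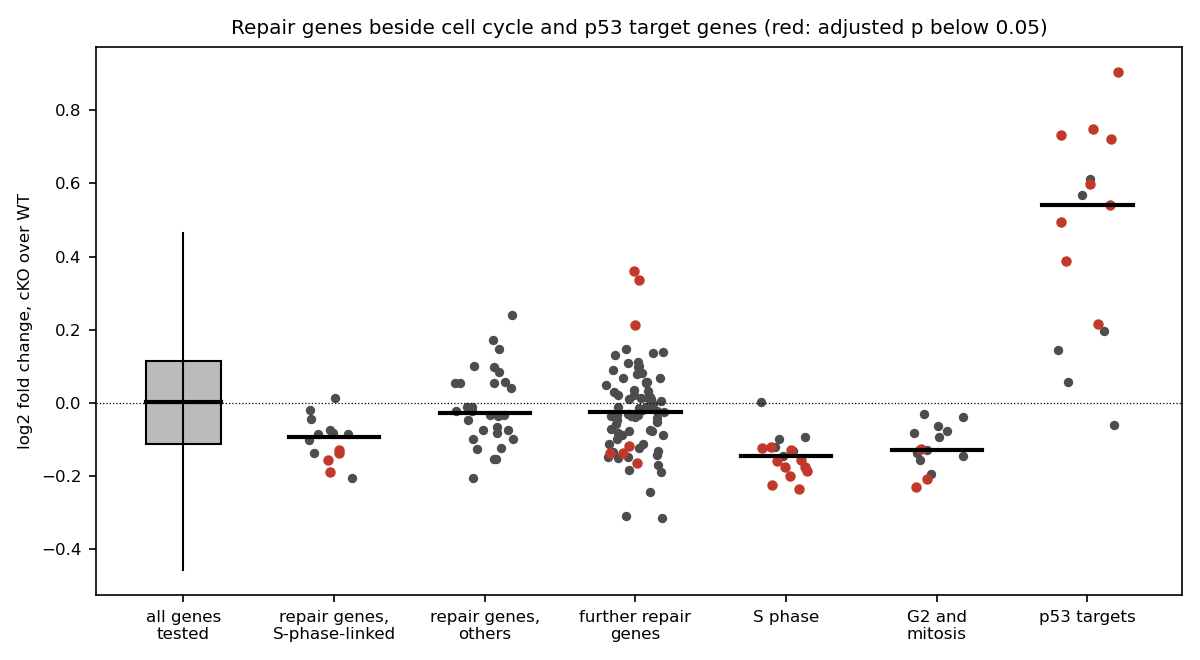
Log2 fold change, cKO over WT, of each gene on a list, with the list median as a bar and genes past the adjusted threshold in red; the box for all genes tested spans the interquartile range and its whiskers the 5th to 95th percentile. The p53 targets have a median of 0.54 and the S phase genes of -0.15. The repair genes have medians of -0.10 (S-phase-linked), -0.03 (other members) and -0.03 (further repair genes). The S-phase-linked list was drawn up with earlier results of these data known and holds every called member, so its median is no independent evidence.

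Beyond the 44 genes, a list of 77 other repair genes was examined, of which 3 rose, 4 fell and 70 did not pass the test, with a median of -0.03. Over all genes tested 7.0% rose and 8.82% fell, so calls on this list were no more frequent than the background. The risers were Ercc5, Polk and Rev1. Ercc5 encodes the nuclease that cuts on the 3′ side of a bulky lesion in nucleotide excision repair, and went from 57.2 ± 5.85 CPM in WT to 73.3 ± 4.71 CPM in cKO (log2 fold change 0.36, SE 0.07, edgeR adjusted p = 0.00846). Rev1, a scaffold of translesion synthesis, by which damaged template is copied, went from 58.5 ± 2.76 to 67.8 ± 0.823 CPM (0.21, SE 0.04, adjusted p = 0.00625). Polk, a polymerase of the same pathway, went from 50.8 ± 5.63 to 64.0 ± 5.93 CPM (0.34, SE 0.08, adjusted p = 0.0216).

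A further translesion polymerase, Polh, fell from 71.0 ± 3.40 to 63.3 ± 2.07 CPM (-0.17, SE 0.04, edgeR adjusted p = 0.0249). The other falls were in Recql4, a helicase (-0.14, adjusted p = 0.0281), Eme1, a subunit of a junction-cutting nuclease (-0.14, adjusted p = 0.0388), and Rad9a, a subunit of the checkpoint clamp (-0.12, adjusted p = 0.0457). Of the 8 translesion genes, 2 rose, 1 fell and 5 did not pass. Without cKO 6 there were 0 falls and 2 rises on this list, and 8.54% of all genes tested were called, against 15.8% with all samples.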

How the data were processed

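RNA was measured in 5 WT and 4 cKO samples; per the labels' protocols, libraries were stranded and mRNA-enriched. The authors deposited raw counts per gene as whole numbers. The tool bcl2fastq 2.17 and the build mm10 are listed in the submitters' processing notes; for aligner, counter and strand setting, nothing is given in the sources used here. Columns were matched to samples by title, and 0 columns belonged to no sample. Total counts of 20587500 to 26387500 per sample set the counting precision.

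The test was edgeR 4.0.16 (R 4.3.3): quasi-likelihood F test, two-sided, TMM scaling, filterByExpr, 14693 genes, Benjamini-Hochberg adjustment, threshold 0.05. The biological coefficient of variation was 8.04%. CPM are counts scaled to the TMM-adjusted library total. Symbols, positions and exonic lengths came from GENCODE M21, promoters from RefSeq. The chi-square per gene within groups was 3.47 to 21.9, so no library was counted as a copy of another in its group. The highest values were for WT 1 against WT 4 (21.9) and against WT 9 (20.3). Pairs across the groups were not compared. Alternatives were DESeq2 1.42.0, limma-voom 3.58.1, other scalings and filters, GC and length offsets, and leaving out each sample. The genes, lists and tests were chosen with earlier results of these data known. Genes were named as members, or as called genes of the other lists with the smallest adjusted p; the gene pairs were chosen after their values were seen.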

Additional observations from a re-analysis of the deposited data

Results flagged for a closer look

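Within-group outliers were sought in 92 groups of 4 or 5 samples, where chance marks about 1 in 20, and 4 were found. The Bard1 level in cKO 6 was 66.9 CPM, far from the 78.8 to 80.4 CPM of the other cKO samples. Xrcc2 in cKO 8 was at 27.5 CPM, against 31.2 to 31.8 CPM in the others. Fancd2 in WT 3 was at 69.0 CPM, against 72.8 to 74.3 CPM in the other WT samples. The summed level of all 44 genes in cKO 6 was 4401 CPM, against 4525 to 4538 CPM in the other cKO samples.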

How the results depend on the processing

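The median log2 fold change of the 44 genes stayed below 0 in all 16 alternatives, and 39 genes kept their sign in every one; Atrip, Rad52, Prkdc, Dclre1c and Fancd2 did not. Lower calls among the 44 numbered 4, with 2 under upper-quartile scaling, 5 under DESeq2, 6 with GC and length offsets and 1 to 9 when single samples were left out. Higher calls numbered 0, with 1 under DESeq2 and 0 to 1 with samples left out. The 14 genes linked to S phase gave 4 lower calls, 2 under upper-quartile scaling, 5 under DESeq2, 6 with GC and length offsets and 0 to 7 with samples left out. For the other repair genes, leaving out samples gave 2 to 5 higher and 0 to 6 lower calls; lower calls were 2 under upper-quartile scaling, 1 with no count filter and 2 with GC and length offsets. Leaving out samples gave 6 to 14 lower S phase genes and 0 to 6 lower genes of G2 and mitosis. Over all genes it gave 531 to 1363 higher and 732 to 1570 lower calls, and the lowest of both came without cKO 6. Upper-quartile scaling put 54.2% of called genes on the higher side, against 44.2%. The mitochondrial difference was 0.171 to 0.270 percentage points, with p of 0.0571 to 0.0714 in 7 of 9 cases. The cause of these shifts was not tested. Leaving out a sample changes both the number of samples and the values included, and these were not separated. No paired analysis was possible because the groups share no replicate number.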
